A study of Mus musculus with 273 samples.

Results

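The miR-17-92 and miR-106a-363 clusters are paralogous groups of microRNA (miRNA) hairpins, and their levels are described here in 3 brain regions and the liver of the mouse. The miR-17-92 cluster holds miR-17 (mmu-mir-17 in the tables), miR-18a (mmu-mir-18a), miR-19a (mmu-mir-19a), miR-20a (mmu-mir-20a), miR-19b-1 (mmu-mir-19b-1) and miR-92a-1 (mmu-mir-92a-1). The members of the miR-106a-363 cluster described are miR-20b (mmu-mir-20b), miR-19b-2 (mmu-mir-19b-2), miR-92a-2 (mmu-mir-92a-2) and miR-363 (mmu-mir-363). The 10 hairpins were chosen by name, without use of their counts, from the 1226 hairpins of the count tables. The small RNA libraries, 78 of cortex and 46 of striatum (both of the right side), 72 of hypothalamus and 77 of liver, came from wild-type C57BL/6J mice, an inbred strain; all were males of 26 weeks, with no transgene or treatment in the labels. Tissue was taken at 3 h steps across 36 h and is labelled by Zeitgeber time (ZT, hours counted from lights on), from ZT0 to ZT21 in cortex, hypothalamus and liver, with no striatum library at ZT15 and only 2 at ZT18. ZT0 to ZT12 were passed in both an earlier (0 to 12 h) and a later (24 to 36 h) stretch.

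A primary transcript of such a cluster is cut into hairpins, each hairpin is cut again, and the retained strand guides Argonaute proteins to messenger RNAs that pair with its seed, the bases next to its 5′ end. miRNAs with the same seed therefore share many targets. In mice the miR-17-92 cluster is known for promoting the growth and survival of progenitor cells, among them neural progenitors and B-cell precursors, and its members lower the pro-apoptotic protein BIM.

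The 6 hairpins of miR-17-92 lie within 836 bases at chr14:115043671-115044506 on the plus strand (GRCm38.p6), all in exon 2 of the non-coding host gene Mir17hg. The 4 of miR-106a-363 lie within 500 bases at chrX:52741693-52742192 on the minus strand, with no annotated host gene. Their guide strands, from RefSeq, fall into 4 seed groups, and they are shown because levels are also summed by seed group below. The seed, bases 2 to 8, is in capitals. miR-17, miR-20a and miR-20b share the first seed, miR-18a has the second with 1 base changed, miR-19a and both miR-19b copies share the third, and both miR-92a copies and miR-363 share the fourth. Below them stand 4 miRNAs from other loci that carry a seed of these groups (miR-93, miR-106b and miR-25 from chromosome 5, miR-92b from chromosome 3).
miR-17-5p: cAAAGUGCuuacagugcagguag
miR-20a-5p: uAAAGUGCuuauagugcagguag
miR-20b-5p: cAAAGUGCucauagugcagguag
miR-18a-5p: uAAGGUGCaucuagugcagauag
miR-19a-3p: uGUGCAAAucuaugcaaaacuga
miR-19b-3p: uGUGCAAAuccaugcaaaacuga
miR-92a-3p: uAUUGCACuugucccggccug
miR-363-3p: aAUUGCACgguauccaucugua
miR-93-5p: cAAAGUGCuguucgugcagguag
miR-106b-5p: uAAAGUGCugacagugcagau
miR-25-3p: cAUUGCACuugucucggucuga
miR-92b-3p: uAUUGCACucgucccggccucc
miR-92b shares 19 of the 21 bases of miR-92a, miR-25 shares 18 of 21, and miR-363 shares 10 of 21.

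miR-92a and miR-19b each have a copy in both clusters, and the copies yield the same mature strand. The hairpin sequence around that strand is given for each copy, with the first base that differs on either side in capitals. miR-92a-1 and miR-92a-2 are identical over 22 bases around the mature strand, and miR-19b-1 and miR-19b-2 over 25 bases.
miR-92a-1: GguauugcacuugucccggccugUugag
miR-92a-2: AguauugcacuugucccggccugAggaa
miR-19b-1: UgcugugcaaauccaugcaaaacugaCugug
miR-19b-2: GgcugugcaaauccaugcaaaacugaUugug
A read no longer than the shared stretch fits both copies equally well. How such reads were counted is not given in the sources used here, so the count of each copy holds only the reads assigned to that locus, and its true level is uncertain. The same limit touches other miRNAs made from several identical copies. The 3 hairpins of miR-124, a miRNA abundant in neurons, had medians of only 2.31, 3.8 and 0.386 CPM (counts per 1000000 counts of the library total) in cortex.

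The tables held 1164449 to 4980887 counts per cortex library, 26341 to 4022070 per striatum library, 1079380 to 3954710 per hypothalamus library and 1988671 to 5236177 per liver library. The labels fitted the hepatocyte and neuron marker miRNAs. A hepatocyte list (miR-122, miR-192, miR-194-2 and miR-802) summed to 1655–7510 CPM in the brain libraries and to 248972–355733 CPM in liver. A neuron list of 10 hairpins summed to at least 1949 CPM in every brain library, mostly as miR-128-1 and miR-128-2, and to at most 12.2 CPM in liver, where 6 of the 10, all copies of miR-124 and miR-9, were at 0 in every library. A list of 9 epithelium and choroid plexus hairpins was high in some brain libraries. It reached 42287 CPM in cortex (median 6514 CPM), 105398 CPM in striatum (median 15213 CPM) and 25594 CPM in hypothalamus (median 19073 CPM). Striatum ZT9 replicate 6 was the shallowest library, with 26341 counts. In liver ZT9 replicate 4 (2032328 counts) 5 of the 10 members lay above and 2 below all other 76 liver libraries. Several liver values that move without that library are therefore also given without it. In that library miR-20a reached 280.5 CPM against 46.5–132.2 CPM in the other liver libraries, and miR-92a-1 6785 CPM against 17223–29454 CPM. It also stood apart beyond the members, since 42 of 175 miRNAs with a liver mean of at least 10 CPM lay above and 44 below all other liver libraries. A red blood cell list summed to 6965 CPM there, against 619–2135 CPM in the other liver libraries, with 3 of its 4 hairpins above all of them. The hepatocyte list, at 310895 CPM, lay within their range in sum, with 2 of its 4 hairpins above all of them, as were 2 of 3 vessel hairpins. The part of other cells' RNA in these values was not tested.

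**Figure D1:**
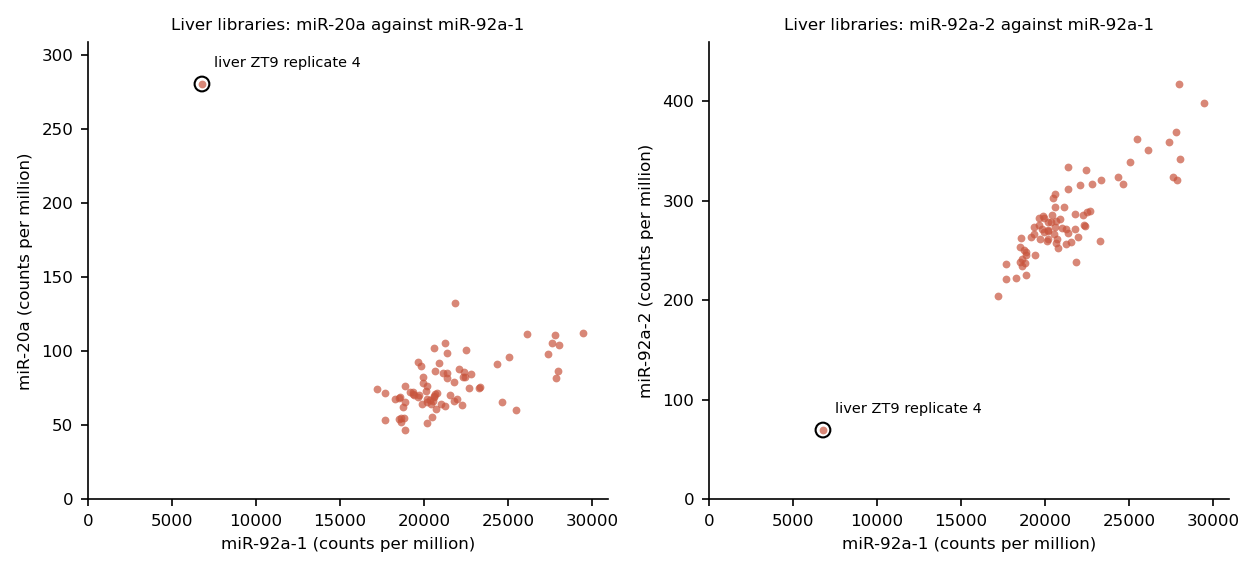
Liver libraries by level of miR-92a-1 (horizontal axis, CPM) against miR-20a (left panel) and miR-92a-2 (right panel, both CPM). Each point is a library and the ring marks liver ZT9 replicate 4, which holds the highest miR-20a (280.5 CPM) and the lowest miR-92a-1 (6785 CPM) and miR-92a-2 (69.4 CPM) of the 77.

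The miR-92a copies carried nearly all of the counts of both clusters. miR-92a-1 had 3212, 4710 and 5899 CPM (lowest, median and highest library) in cortex, 2684, 4304 and 7054 CPM in striatum, 2009, 3319 and 5019 CPM in hypothalamus, and 6785, 20648 and 29454 CPM in liver. It ranked 33rd, 35th and 38th of the 1226 hairpins by mean CPM in cortex, striatum and hypothalamus, and 11th in liver. Apart from liver ZT9 replicate 4, every liver library had more miR-92a-1 than any brain library. miR-92a-2, from the X-linked cluster, had 84.9, 155.7 and 215.5 CPM in cortex, 75.7, 144.1 and 227.8 CPM in striatum, 56.0, 101.2 and 263.1 CPM in hypothalamus, and 69.4, 273.2 and 417.1 CPM in liver. Its brain and liver ranges overlapped. Hairpin counts add both arms, and CPM of hairpins are not divided by length, since each read is taken as 1 mature molecule.

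miR-17 and miR-20a, which share a seed, stood next in level. miR-17 had 23.7, 43.1 and 66.3 CPM in cortex, 8.01, 33.3 and 59.7 CPM in striatum, 16.5, 28.6 and 47.6 CPM in hypothalamus, and 49.8, 74.3 and 150.6 CPM in liver. miR-20a had 17.1, 33.3 and 50.8 CPM in cortex, 0, 29.0 and 46.6 CPM in striatum, 9.96, 22.5 and 33.3 CPM in hypothalamus, and 46.5, 72.7 and 280.5 CPM in liver. The brain ranges of both lay mostly below the liver range, with overlap at the edges. The median order, liver, cortex, striatum and hypothalamus, was the same for both, as it was for the miR-92a copies, but the ranges of the 3 brain regions overlapped widely.

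miR-18a and miR-19a were lower. miR-18a, which differs from the miR-17 seed by 1 base, had 1.60, 4.87 and 9.30 CPM in cortex, 0, 4.44 and 8.07 CPM in striatum, 1.07, 5.20 and 10.2 CPM in hypothalamus, and 3.82, 8.12 and 48.7 CPM in liver. miR-19a, of the third seed group, had 0.576, 4.30 and 9.10 CPM in cortex, 0, 6.25 and 15.6 CPM in striatum, 1.87, 5.05 and 11.3 CPM in hypothalamus, and 10.4, 24.4 and 48.7 CPM in liver. Their brain medians lay within about 2 CPM of each other. miR-363, the last hairpin of the X-linked cluster, ran the other way in CPM. It had 0, 2.77 and 5.89 CPM in cortex, 0, 4.82 and 10.7 CPM in striatum, 0.536, 2.48 and 7.92 CPM in hypothalamus, and 0, 0.909 and 2.57 CPM in liver, where 28 of 77 libraries held more than 3 counts.

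The remaining 3 members were close to the limit of detection. miR-20b, which shares the miR-17 seed, totalled 238 counts over all cortex libraries, 118 over those of striatum, 94 over those of hypothalamus and 85 over those of liver. miR-19b-2 had 45, 21, 19 and 233 counts, and miR-19b-1 had 18, 13, 18 and 85 counts, in the same order. These totals stand for at most 1.02 CPM on average in any tissue, and a count of 0 in 1 library still allows up to 3 counts. Both miR-19b copies were thus far below miR-19a, from which the mature miR-19b differs by 1 base. How reads that fit both copies were counted is not known.

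**Figure D2:**
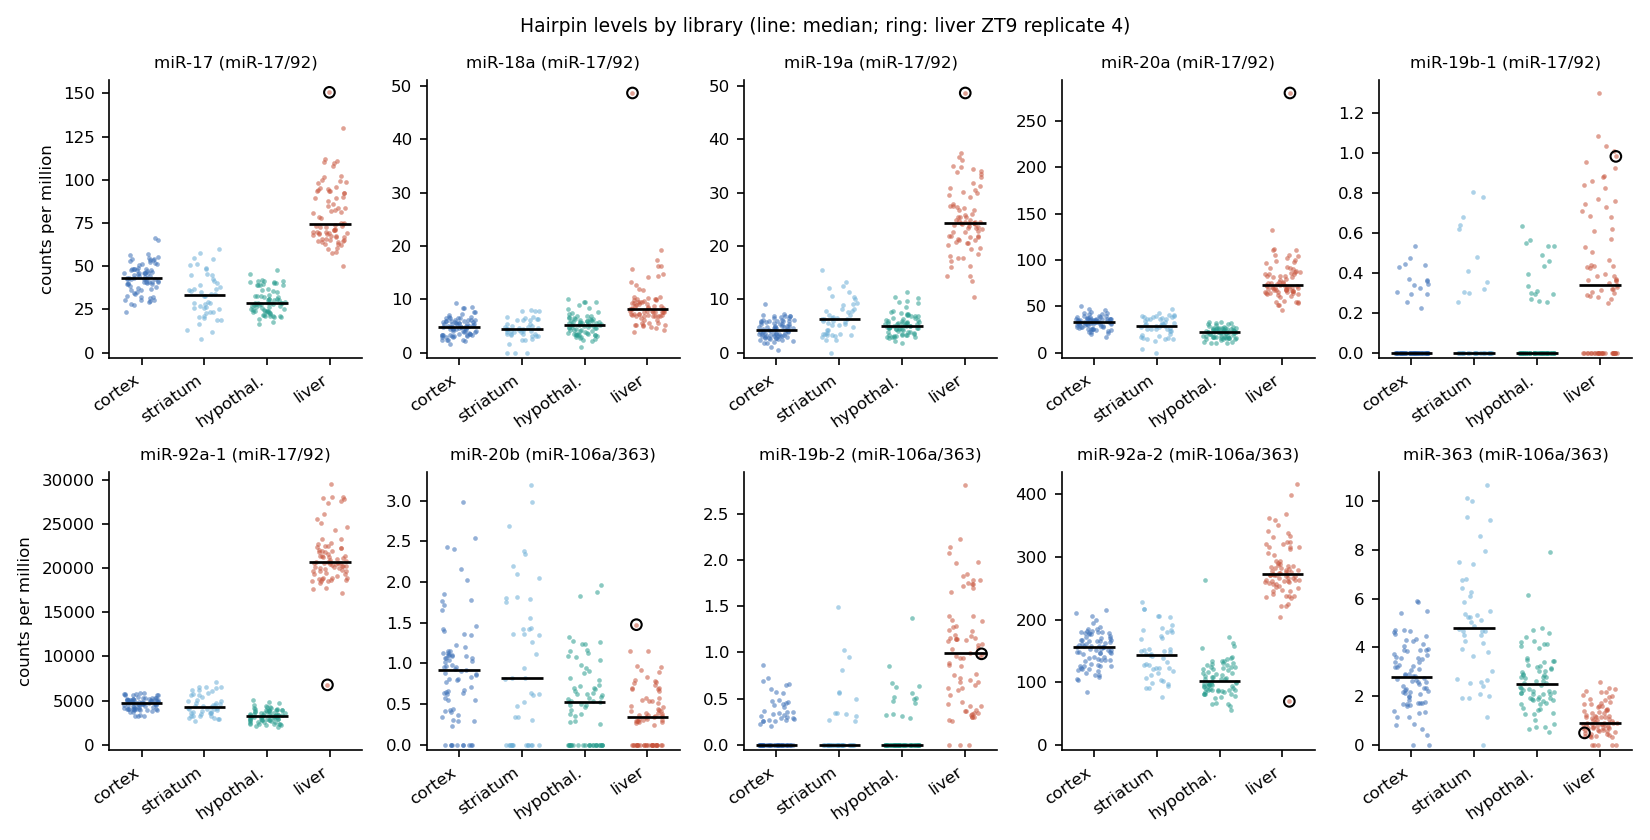
Level of each of the 10 members (CPM, 1 panel per member) in every library of cortex, striatum, hypothalamus and liver. Points are libraries, the line is the tissue's median, and the ring marks liver ZT9 replicate 4. Medians of miR-92a-1 run from 3319 CPM in hypothalamus to 20648 CPM in liver.

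The levels of the members were then compared between tissues with edgeR's quasi-likelihood test on the counts, with ZT as a covariate, TMM scaling and Benjamini-Hochberg adjustment over the 441 miRNAs that passed the filter on low counts. A difference was called at an adjusted p below 0.05 and a log2 ratio of at least 1 in size. The filter kept 7 members and left out miR-19b-1, miR-19b-2 and miR-20b. Of the 7 tested, 6 were called lower in cortex than in liver, against a background of 29.5% of all tested miRNAs called lower there. The same count was 6 of 7 in striatum (background 31.1%) and 6 of 7 in hypothalamus (background 31.5%). The 3 comparisons share the liver libraries. In these bulk samples fewer cells of a type and less RNA per cell cannot be told apart.

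miR-92a-1 had a log2 ratio of -4.33 ± 0.04 (SE) for cortex over liver, -4.39 ± 0.05 for striatum over liver and -4.85 ± 0.04 for hypothalamus over liver. Its adjusted p was 3.4e-207 for cortex over liver, in edgeR's quasi-likelihood test. miR-19a had -4.66 ± 0.08, -4.13 ± 0.10 and -4.40 ± 0.08 in the same order of comparisons. These were the members with the lowest brain values relative to liver. miR-20a had -3.41 ± 0.05, -3.63 ± 0.07 and -4.03 ± 0.06. miR-17 had -3.04 ± 0.05, -3.43 ± 0.06 and -3.58 ± 0.05. miR-17 was thus less far below liver than miR-20a, which shares its seed, in each comparison. miR-18a had -3.04 ± 0.08, -3.16 ± 0.10 and -2.96 ± 0.09. miR-92a-2 had -3.01 ± 0.05, -3.09 ± 0.06 and -3.55 ± 0.05, a smaller difference than that of miR-92a-1.

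miR-363 was the exception. Its log2 ratio was -0.70 ± 0.13 for cortex over liver, 0.17 ± 0.14 for striatum over liver and -0.84 ± 0.14 for hypothalamus over liver, none of which was called, and with scaling on library totals alone the values were 1.46 ± 0.13, 2.33 ± 0.14 and 1.33 ± 0.13, all past the threshold and reversed in cortex and hypothalamus. With DESeq2 size factors the striatum value was 0.69. The scaling sets the level of all these ratios. The median TMM factor was 1.53, 1.51 and 1.52 in the 3 brain regions and 0.344 in liver. The median log2 ratio over all 441 miRNAs was 0.97, 1.12 and 1.07 for cortex, striatum and hypothalamus over liver with TMM, and 3.11, 3.25 and 3.24 with library totals. The share of calls that were higher in brain was 62.8%, 62.3% and 61.6% with TMM, 66.2%, 67.3% and 67.9% with DESeq2 size factors, and 85.4%, 83.5% and 84.7% with library totals.

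Relative to the median of all miRNAs, none of the 21 ratios of members over liver moved by more than 0.0309 on the log2 scale between TMM, DESeq2 size factors and library totals, as follows from the measure, since a scaling shifts all miRNAs nearly alike. By that measure the TMM ratios for cortex, striatum and hypothalamus over liver were -5.30, -5.50 and -5.92 for miR-92a-1, and -5.63, -5.25 and -5.47 for miR-19a. They were -4.38, -4.75 and -5.10 for miR-20a, -4.01, -4.55 and -4.65 for miR-17, -4.01, -4.28 and -4.03 for miR-18a, and -3.99, -4.21 and -4.62 for miR-92a-2. miR-363, at -1.67, -0.95 and -1.91, was also below the median of all miRNAs in brain relative to liver. With library totals 6 members still had negative ratios, but miR-17, miR-18a and miR-92a-2 for cortex (-0.89, -0.88 and -0.87), miR-18a and miR-92a-2 for striatum (-0.996 and -0.94) and miR-18a for hypothalamus (-0.80) missed the size of 1. Without liver ZT9 replicate 4 no tissue ratio of a tested member moved by more than 0.08. Consecutive library numbers with 1 code in the labels were taken as library runs; what the code marks is not given in the sources used here. These assumed runs were separate for liver and brain except for 1 of 14, so they cannot be told apart from tissue in these 3 comparisons. Within liver the means of miR-92a-1 over 5 assumed runs were 19526–22551 CPM, and within cortex those over 9 runs were 3909–5304 CPM.

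**Figure D3:**
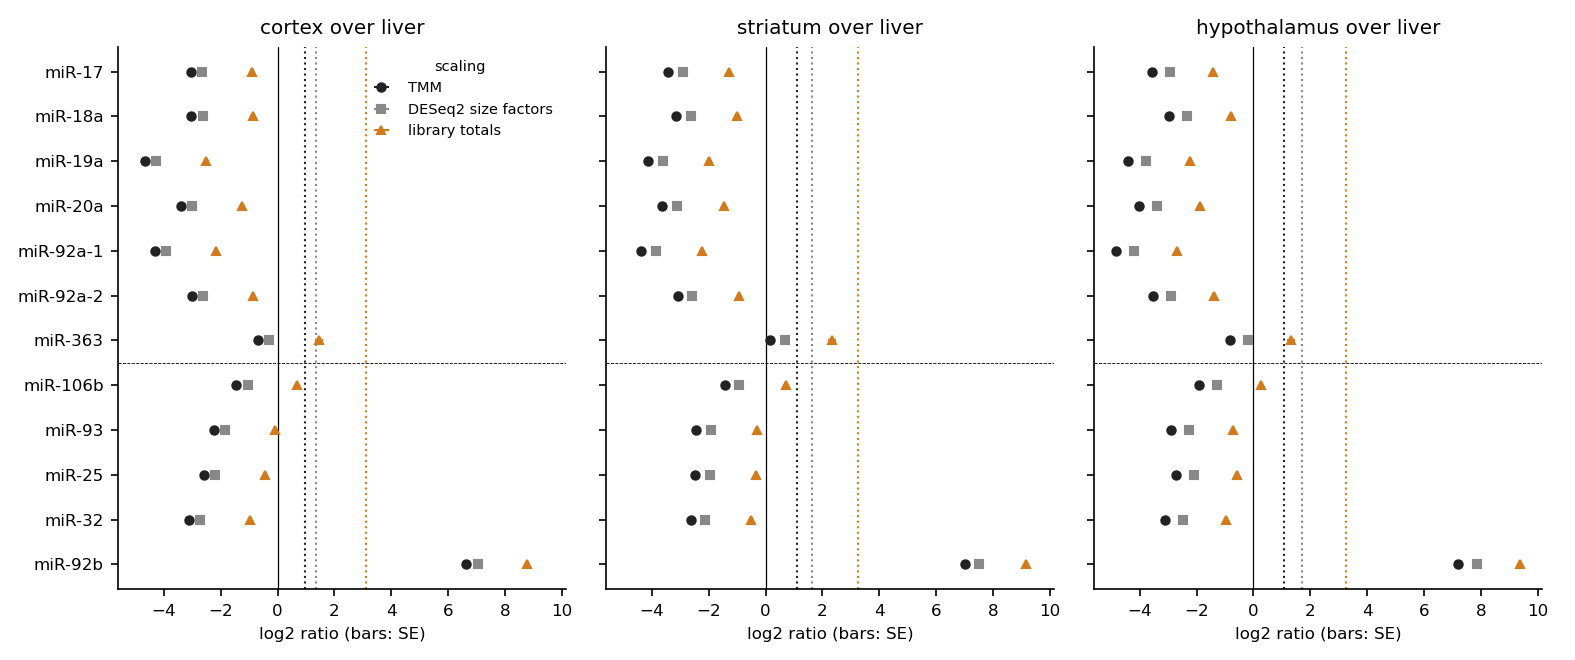
Log2 ratios of cortex, striatum and hypothalamus over liver for the 7 tested members (upper rows) and 5 related miRNAs (lower rows) under 3 scalings. Dotted lines are the medians over all 441 tested miRNAs; with TMM they lie at 0.97, 1.12 and 1.07, and 6 of the 7 members lie to the left of 0 under every scaling shown, miR-363 being the exception.

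Within the brain the members differed less. Of the 7 tested, 0 were called between cortex and striatum (background 13.8%) and 0 between cortex and hypothalamus (background 28.1%), since no log2 ratio reached 1 in size. In cortex over striatum, miR-17 stood at 0.39 ± 0.06 (adjusted p = 1.8e-09), miR-19a at -0.53 ± 0.10 (2.7e-06) and miR-363 at -0.87 ± 0.12 (1.7e-11), all from edgeR's quasi-likelihood test. In cortex over hypothalamus miR-17, miR-20a, miR-92a-1 and miR-92a-2 stood at 0.55 ± 0.05, 0.62 ± 0.06, 0.52 ± 0.04 and 0.53 ± 0.05, with adjusted p of at most 2.7e-21. All of these had p below 0.05 with a change of under 1 on the log2 scale. Fits with the assumed run as a term gave 0.48, -0.48 and -0.81 for the first 3, and 0.65, 0.73, 0.63 and 0.64 for the other 4. DESeq2 size factors gave 0.26, -0.65 and -0.99 for the first 3, and 0.31, 0.38, 0.28 and 0.30 for the other 4. Over all 441 miRNAs the share of calls that were higher in cortex was 44.3% against striatum with TMM and 29.7% with DESeq2 size factors, and 35.5% and 22.1% against hypothalamus.

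miR-363 was the 1 member of 7 called between striatum and hypothalamus, where 13.4% of all miRNAs were called and 4.99% were called higher in striatum. Its log2 ratio was 1.01 ± 0.13 (adjusted p = 3.1e-13, edgeR's quasi-likelihood test), from a mean of 5.08 ± 2.50 CPM in striatum and 2.66 ± 1.28 CPM in hypothalamus (SD, n = 46 and 72). The call sat at the threshold. It was lost at 0.91 with the animal as a replicate block, at 0.90 with DESeq2 size factors, at 0.99 with library totals, at 0.98 with no filter, at 0.90 with DESeq2, and when any of 6 single libraries was left out (hypothalamus ZT18 replicate 1, ZT18 replicate 2, ZT21 replicate 1 or ZT21 replicate 5, striatum ZT18 replicate 2 or ZT21 replicate 2, at 0.98–0.999). The direction was the same in all of these. With the assumed run as a term the ratio was 1.04.

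Other miRNAs that share a seed or an ancestor with the 10 hairpins gave another picture. Of 8 on that list, miR-106a, miR-18b and miR-367 did not pass the filter; miR-106a and miR-18b lie on the X chromosome beside miR-20b and belong to the miR-106a-363 cluster, but were not among the 10. The other 5 were all called against liver in each brain region: miR-92b was higher, and miR-106b, miR-93, miR-25 and miR-32 were lower. Of all miRNAs 79.1%, 82.3% and 82.1% were called in either direction for cortex, striatum and hypothalamus. miR-92b, which has the miR-92a seed, had log2 ratios of 6.64 ± 0.04, 7.01 ± 0.05 and 7.21 ± 0.05. miR-93, with the miR-17 seed, had -2.25 ± 0.04, -2.45 ± 0.05 and -2.89 ± 0.04, and miR-106b had -1.45 ± 0.03, -1.43 ± 0.04 and -1.91 ± 0.03, which turned to 0.70, 0.70 and 0.25 with library totals. With that scaling miR-93 was at -0.10, -0.29 and -0.72, miR-25 at -0.45, -0.34 and -0.58, and miR-32 at -0.97, -0.50 and -0.96, so none of these 4 was called against liver under it.

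The counts of all hairpins whose guide strand carries the same seed were then added. Hairpin counts add both arms, so any reads of the opposite arm are in these sums and were not set apart. The miR-92a seed group, 7 hairpins, summed to 19711 ± 3077 CPM in cortex, 23675 ± 4802 CPM in striatum, 25196 ± 4545 CPM in hypothalamus and 22968 ± 3281 CPM in liver (SD). These sums are on library totals; with TMM-scaled totals, a scaling added after the data were seen, they were 12964 ± 1756, 15518 ± 2557, 16367 ± 2599 and 67041 ± 9962 CPM, so their order depends on the scaling. The 3 members of the clusters made up 24.8 ± 2.75% of the sum in cortex, 19.7 ± 2.72% in striatum and 13.6 ± 1.65% in hypothalamus, against 93.4 ± 1.80% in liver (93.6 ± 0.78% without liver ZT9 replicate 4). miR-92b made up 69.8 ± 3.28%, 75.4 ± 3.08% and 82.5 ± 1.94% of it in the 3 brain regions and 0.137 ± 0.026% in liver. Its mean level was 13822, 17866 and 20811 CPM in cortex, striatum and hypothalamus, against 31.1 CPM in liver. The ranges of the miR-92b share in brain (62.5% and more) and liver (0.203% and less) did not overlap. These shares do not depend on the scaling between tissues, but they take the miR-92a counts as deposited, whose handling of reads fitting both copies is not known. They are given as a description, with no test.

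The miR-17 seed group was made up differently. Its 7 hairpins summed to 915 ± 152 CPM in cortex, 822 ± 239 CPM in striatum, 609 ± 135 CPM in hypothalamus and 1005 ± 123 CPM in liver, and with TMM-scaled totals to 600.4 ± 81.2, 534.9 ± 128.9, 394.4 ± 75.4 and 2925 ± 305 CPM. miR-93, of the third paralogous cluster, made up 78.2 ± 1.79%, 76.7 ± 4.33%, 76.3 ± 3.06% and 76.7 ± 2.53% of the sum in the same order. Its mean share thus lay between 76.3% and 78.2% in the 4 tissues, with no test made. The members miR-17, miR-20a and miR-20b together made up 8.47 ± 0.80% in cortex, 7.57 ± 1.58% in striatum and 8.58 ± 0.81% in hypothalamus, against 15.8 ± 2.63% in liver (15.6 ± 1.75% without liver ZT9 replicate 4). In the miR-19 seed group, all 3 hairpins are members, and miR-19a held a mean of 94.3–96.0% of the counts in each tissue. That share takes the miR-19b counts as deposited, whose handling of reads fitting both copies is not known.

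**Figure D4:**
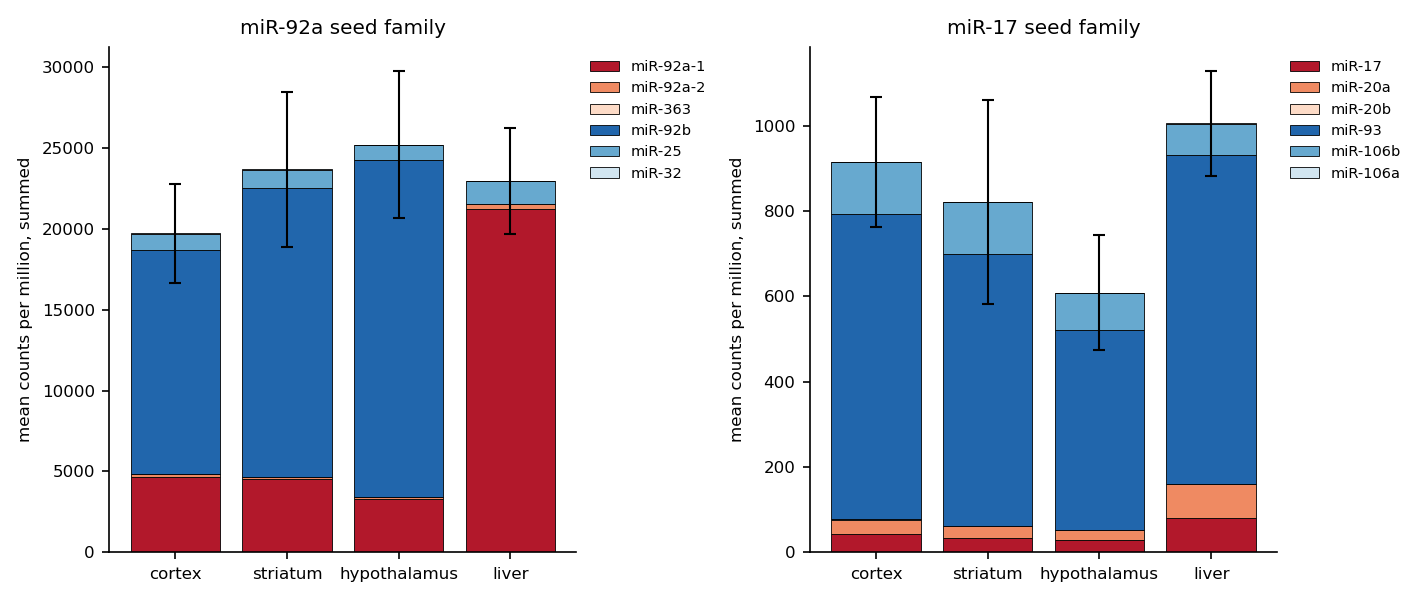
Mean summed level (CPM) of the miR-92a seed group (left) and the miR-17 seed group (right) in cortex, striatum, hypothalamus and liver, stacked by hairpin; error bars are the SD of the sum over libraries. miR-92b fills 69.8–82.5% of the miR-92a group in brain and 0.137% in liver, while miR-93 fills 76.3–78.2% of the miR-17 group in all 4 tissues.

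The share of each member in the summed counts of its own cluster does not depend on the scaling either. miR-92a-1 made up 98.2 ± 0.24% of the miR-17-92 counts in cortex, 98.4 ± 0.34% in striatum and 98.1 ± 0.34% in hypothalamus, against 99.0 ± 0.74% in liver (SD). miR-17 made up 0.908 ± 0.140%, 0.721 ± 0.187% and 0.891 ± 0.158% in the 3 brain regions and 0.391 ± 0.201% in liver. miR-20a, with the same seed, made up 0.696 ± 0.127%, 0.613 ± 0.201% and 0.647 ± 0.159% in brain and 0.401 ± 0.401% in liver. Liver ZT9 replicate 4 had the highest liver shares of both, 2.06% for miR-17 and 3.83% for miR-20a. The liver medians were 0.362% and 0.360%. The balance of miR-17, miR-18a and miR-20a against miR-92a-1 was thus tilted towards them in brain. Each of the 3 had a higher share in each brain region than in liver in a two-sided permutation test (100000 resamples, adjusted p = 3.75e-05 over 60 comparisons, from 2e-05, the smallest p these resamples can give). miR-20a in striatum lost the call with animals as pairs (adjusted p = 0.0675, permutation test by sign flips). miR-19a had a lower share in cortex (0.0929 ± 0.0375%) and a higher one in hypothalamus (0.170 ± 0.084%) than in liver (0.122 ± 0.067%), with adjusted p of 0.000103 each by permutation. Its higher share in striatum (0.161 ± 0.109%, adjusted p = 0.0252 by permutation) lost the call with animals as pairs (adjusted p = 0.246).

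In the miR-106a-363 cluster, miR-92a-2 made up 97.5 ± 0.996%, 95.8 ± 2.12% and 96.9 ± 1.40% of the counts of its 4 members in cortex, striatum and hypothalamus and 99.1 ± 0.48% in liver. miR-363 made up 1.83 ± 0.88%, 3.49 ± 1.89% and 2.47 ± 1.11% in brain and 0.374 ± 0.210% in liver. miR-363 was highest in striatum by this measure too. All 6 pairwise differences of miR-363 were called by permutation, those between each brain region and liver at an adjusted p of 3.75e-05 and those within the brain at 0.0006 or less. miR-20b had a mean share of 0.495–0.629% in brain and 0.149% in liver, and miR-19b-2 one of 0.106–0.113% in brain and 0.367% in liver. These mean shares differed in opposite directions, each called by permutation at an adjusted p of 3.75e-05. Both hairpins were close to the limit of detection and failed the filter of the tissue test. The median share of miR-19b-2 was 0 in each brain region. In all, 42 of the 60 differences were called. Without liver ZT9 replicate 4 no share difference moved by more than 0.0825 percentage points.

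The deposited counts of the 2 miR-92a copies stood in a different ratio in liver than in brain. The ratio of miR-92a-1 to miR-92a-2 counts, computed after the levels had been seen, was 22.9, 30.3 and 39.8 (lowest, median and highest library) in cortex, 17.7, 31.4 and 41.0 in striatum, 19.1, 32.1 and 48.6 in hypothalamus, and 64.1, 75.4 and 97.8 in liver. All liver libraries, liver ZT9 replicate 4 included, lay above all brain libraries. On the log2 scale the difference from liver was -1.31 in cortex, -1.30 in striatum and -1.28 in hypothalamus (two-sided permutation test, adjusted p = 4e-05 over 6 comparisons). The 3 differences within the brain were between -0.03 and -0.01 and none was called (adjusted p = 0.636–0.754 by permutation). The mature strands of the copies are identical, and how reads fitting both were counted is not known. The lengths and arms of the reads behind each count were not analysed here. Assumed runs were almost wholly separate for liver and brain. They therefore cannot be told apart from tissue in this ratio or in the shares above.

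No member was called for a 24 h rhythm in any tissue. A cosine and sine of period 24 h were fitted to the counts of each tissue with edgeR's quasi-likelihood test. Of all miRNAs 0.254% (1 of 393) were called in cortex, 0.528% (2 of 379) in striatum, 0.263% (1 of 380) in hypothalamus and 4.98% (12 of 241) in liver. Of the members, 0 of 7, 0 of 7, 0 of 6 and 0 of 6 were called, and 0, 0, 1 and 1 had an unadjusted p below 0.05. DESeq2 also called 0 members. The 2 with a low unadjusted p were both miR-18a. In liver miR-18a had a fitted peak-to-trough log2 ratio of 0.61 ± 0.19 with its peak at ZT8.57 ± 1.15 (adjusted p = 0.101, edgeR's quasi-likelihood test; 0.0663–0.320 under the alternatives). Its mean was 13.6 ± 12.1 CPM at ZT9 (n = 11) and 6.33 ± 1.69 CPM at ZT15 (n = 6). The ZT9 group holds liver ZT9 replicate 4, at 48.7 CPM, and without it the fitted ratio was 0.39 ± 0.15 (adjusted p = 0.228). In hypothalamus miR-18a had 0.45 ± 0.16 with a peak at ZT10.1 ± 1.43 (adjusted p = 0.999; 0.0705–0.9997 under the alternatives).

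miR-92a-1, the most abundant member, showed the same. Means of miR-92a-1 per ZT lay at 4510–5034 CPM in cortex, 3606–5142 CPM in striatum, 3025–3805 CPM in hypothalamus and 19440–22336 CPM in liver. Its fitted peak-to-trough log2 ratio was 0.07 ± 0.06 for cortex, 0.22 ± 0.15 for striatum, 0.10 ± 0.09 for hypothalamus and 0.04 ± 0.08 for liver. For miR-17 the same quantity was 0.05 ± 0.08, 0.13 ± 0.24, 0.17 ± 0.10 and 0.10 ± 0.09, the last of which was 0.03 without liver ZT9 replicate 4. The SE of striatum was the largest, with 46 libraries. Rhythms above these errors in size could also be missed with this number of libraries. The fitted ratios of miR-18a, 0.61 ± 0.19 in liver and 0.45 ± 0.16 in hypothalamus, were not called. The test of a rhythm that differs between tissues called 28 of 452 miRNAs (6.19%) and 0 of 7 members, whose lowest adjusted p was 0.481 for miR-18a (edgeR's quasi-likelihood test).

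**Figure D5:**
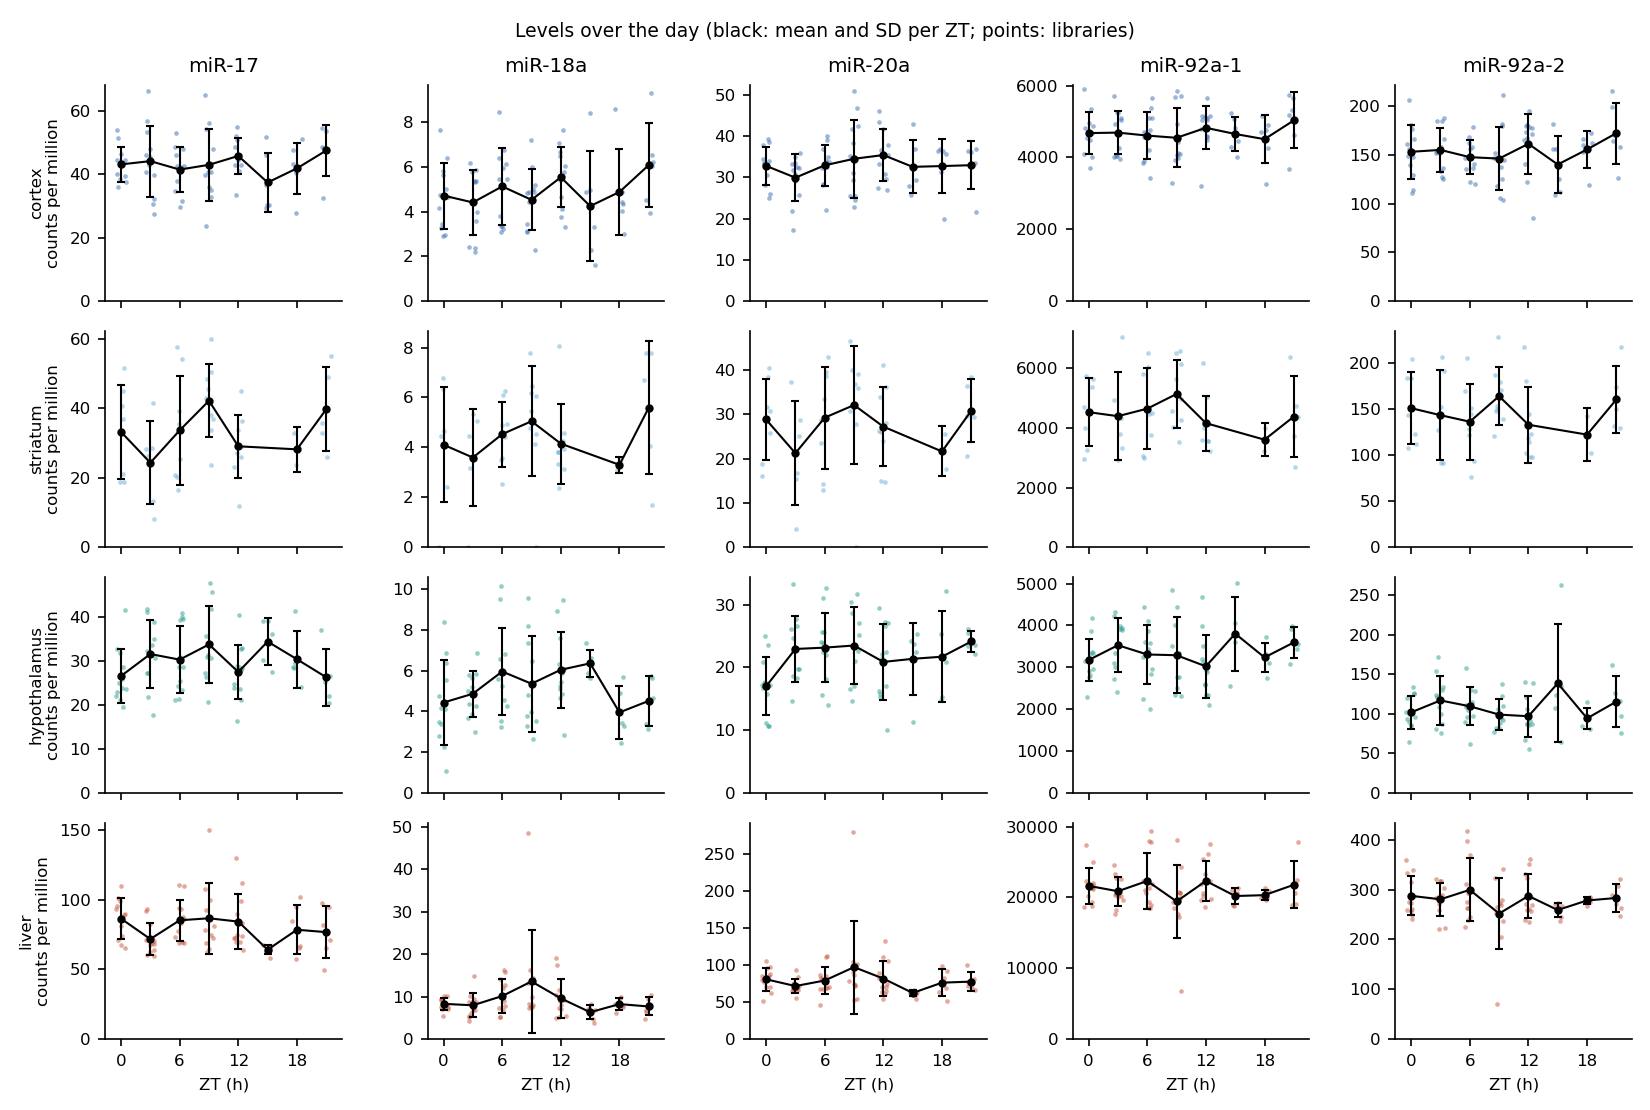
Levels (CPM) of miR-17, miR-18a, miR-20a, miR-92a-1 and miR-92a-2 (columns) by ZT (h) in the 4 tissues (rows). Small points are libraries and the larger points with bars are the mean and SD per ZT; the liver panel of miR-18a shows the ZT9 library at 48.7 CPM, above all others.

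ZT0 to ZT12 were sampled in both stretches, and the later one (24 to 36 h) was compared with the earlier (0 to 12 h). In cortex 30.7% of all miRNAs were called by edgeR's quasi-likelihood test (122 of 398), and 0 of the 7 members. miR-17 stood nearest, at a log2 ratio (later over earlier) of 0.13 ± 0.06 (adjusted p = 0.0918; 0.0671–0.782 under the alternatives), and miR-363 had 0.36 ± 0.18 (adjusted p = 0.121). Among the related miRNAs 3 were called higher in the later stretch of cortex, where 17.6% of all miRNAs were called higher: miR-92b at 0.23 ± 0.06 (adjusted p = 0.00174), miR-93 at 0.15 ± 0.05 (adjusted p = 0.0103) and miR-106b at 0.11 ± 0.04 (adjusted p = 0.0395). edgeR called 0 of 381, 384 and 246 miRNAs in striatum, hypothalamus and liver, where 50, 4 and 10 had an unadjusted p below 0.05 and where DESeq2 called 0, 0 and 1, with no member among them.

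Library by library, the members of a cluster moved together only in part. After removal of each tissue's mean, Pearson's r between log2(CPM + 1) values over the 273 libraries was 0.79 for miR-92a-1 with miR-92a-2, 0.56 for miR-17 with miR-20a and 0.58 for miR-17 with miR-92a-1. It was -0.11 for miR-17 with miR-19a, but the sign of this r differed between tissues. Liver libraries gave 0.69 for that pair (0.66 without liver ZT9 replicate 4). Striatum gave -0.51, hypothalamus -0.21 and cortex 0.09. In liver alone r was 0.94 for the miR-92a copies, 0.84 for miR-17 with miR-20a and 0.12 for miR-17 with miR-92a-1. Without liver ZT9 replicate 4 the same 3 values were 0.86, 0.83 and 0.61, so the low r of miR-17 with miR-92a-1 rests on that library. Over all libraries, r with the log2 library total was 0.39 for miR-17, 0.61 for miR-20a and 0.44 for miR-92a-1. The values moved with depth in each brain region (r from 0.40 to 0.85). The highest, miR-20a in striatum, includes the shallowest library. In liver r was -0.29, -0.23 and 0.06 (-0.23, -0.12 and -0.16 without liver ZT9 replicate 4). Of 155 other miRNAs with a mean of at least 10 CPM in every tissue, those most like the miR-17-92 sum were miR-351 (r = 0.75), miR-93 (0.71), miR-322 (0.65), miR-31 (0.63) and miR-423 (0.63), against a median of 0.14 over the 155. Those most like the miR-106a-363 sum were miR-351 (0.58), miR-93 (0.58), miR-151 (0.54), miR-423 (0.52) and miR-15b (0.52), against a median of 0.13. Without liver ZT9 replicate 4, miR-93 led both lists (0.76 and 0.63), and miR-423 left the first 5 of both and miR-151 those of the second. The 2 lists share 3 names, and each sum is at least 95.8% a copy of miR-92a on average.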

How the data were processed

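Small RNA libraries of 4 tissues were counted per miRNA hairpin by the authors; the deposited values are whole-number counts, not normalized. Per the submitters' processing notes, the tools were HTSeq 0.10.0 and STAR 2.7.3a, with the build GRCm38 (mm10). All 273 columns were mapped to samples by their titles and 0 were left unmapped. The members were chosen by name, without use of their counts, but earlier results of these data were known when they and the lists were set. All 10 members are named, related and marker lists are given by counts or beside a result, and the 5 most similar miRNAs by correlation.

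Counts were tested with edgeR 4.0.16 (R 4.3.3, limma 3.58.1), with TMM scaling, its filter on low counts and Benjamini-Hochberg adjustment over all miRNAs tested; all libraries entered the tissue fit, with ZT as a factor. DESeq2 1.42.0, other scalings, no filter, summed copies, library run (assumed from codes whose meaning is not given in the sources used here), replicate blocks and left-out libraries were alternatives. Shares used two-sided permutation tests (SciPy 1.17.1). CPM are counts per 1000000 counts of the library. Scripts were tested on simulated data.

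The labels give 79 animal codes, of which 78 have libraries of 2 or more tissues, so tissues are paired by animal; the remaining code, of 1 striatum library, differs by 1 letter from another animal's and was kept apart, though it may be a misspelling; libraries of the same animal in 2 tissues had a median correlation of their deviations between -0.07 and 0.06. Title numbers match animals in 42 of 359 pairs and pair nothing by design.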

Additional observations from a re-analysis of the deposited data

Results flagged for a closer look

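Within groups of 4 to 10 libraries of 1 tissue and ZT, each member with a median above 3 counts was tested. This gave 112 tests of a member in a group. In 12 of them a library's gap to its nearest neighbour was large for the range of the group, where chance flags about 1 in 20. Members share the same libraries, so the tests are not independent. The 12 values come from 9 libraries, and their causes were not tested.

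In cortex ZT21 replicate 5, miR-17 was at 32.4 CPM (others 47.5–54.8 CPM) and miR-20a at 21.5 CPM (others 33.3–36.8 CPM). Cortex ZT18 replicate 5 was low in miR-20a, at 19.9 CPM (others 31.2–36.9 CPM), and in miR-92a-2, at 119.3 CPM (others 153.1–171.9 CPM). In cortex ZT18 replicate 4, miR-18a was at 8.61 CPM (others 2.98–4.88 CPM). In striatum ZT12 replicate 1, miR-18a was at 8.07 CPM (others 2.36–4.58 CPM). Striatum ZT9 replicate 6, the library of 26341 counts, had 0 CPM of both miR-18a (others 4.14–7.80 CPM) and miR-20a (others 27.8–46.6 CPM). At that depth 3 counts are 113.9 CPM, so these zeros do not show a lower level.

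In hypothalamus ZT9 replicate 9, miR-19a was at 11.3 CPM (others 4.37–7.30 CPM). In hypothalamus ZT15, miR-20a was at 11.2 CPM in replicate 5 (others 22.4–25.3 CPM) and miR-363 at 7.92 CPM in replicate 4 (others 1.96–3.01 CPM). In liver ZT21 replicate 6, miR-19a was at 10.4 CPM (others 23.9–30.0 CPM).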

How the results depend on the processing

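Of 1317 tissue ratios of members under the alternatives, 1297 kept their side of the threshold, 17 lost the call and 1 gained it. The other 2 reversed into a call (miR-363 in cortex and hypothalamus over liver, 1.46 and 1.33 with library totals). Sign changes of ratios called in neither fit were not counted. For example, miR-92a-1 in cortex over striatum, at 0.06, ran from -0.07 to 0.14 under the alternatives. miR-363 in striatum over liver, at 0.17, went down to -0.08. Members called in striatum over hypothalamus numbered 0 with DESeq2 size factors, library totals, no filter, DESeq2 or the animal as replicate block, and 0 to 1 with single libraries left out; the cause was not tested. The animal block gave 41 share differences for 42 and changed no other count of members. All 407 rhythm, 191 passage and 69 interaction values of members kept their side, also with the title number as replicate block. Counts over all miRNAs moved more. With no filter, which tests 1004 miRNAs, the tissue calls were 629, 631 and 651 against liver, where the filter left 79.1%, 82.3% and 82.1% of 441 called, and 96, 217 and 105 within the brain, for 61, 124 and 59. With the title number as replicate block, rhythm calls were 61 for hypothalamus, 21 for liver, 7 for cortex and 0 for striatum, and passage calls in cortex 72. Under other settings rhythm calls reached 8 in cortex (DESeq2), 4 in striatum (no filter) and 8 in hypothalamus (ZT as a factor), and 6 in liver (ZT as a factor). The interaction gave 3 calls with the animal block and 10 to 13 with other scalings, DESeq2 or no filter. Liver passage calls became 1 with DESeq2 or without liver ZT9 replicate 4. Depth limits miR-20b and both miR-19b copies.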

Other observations

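Libraries that share a title number and a ZT deviated together more than libraries of 1 animal. In cortex and hypothalamus the median correlation of their deviations from the group means was 0.26 over 72 pairs with the same title number, 45 of them above 0.1, and 0.04 over 72 pairs of the same animal. Within each ZT of cortex the title numbers rise with the library numbers in the labels. What they mark beyond that order is not given in the sources used here, and the part of library order was not tested. The animal of liver ZT9 replicate 4 also gave the shallowest library of the series, striatum ZT9 replicate 6 with 26341 counts, and cortex ZT9 replicate 12 with 1750751 counts.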
